A study of Mus musculus with 6 samples.

Results

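The secreted growth factors examined here are 8 genes chosen as a list, Igf1, Pdgfa, Pdgfb, Vegfa, Vegfb, Tgfb1, Bdnf and Hbegf, matched by symbol among the 54532 genes of the count table. All 8 were found, 7 had enough counts to be tested, and Bdnf had none. The libraries are RNA-seq of BV2, an immortalised mouse microglial line, in 2 groups of 3. One group carries the genotype label SMEK1 knockdown and the other the label WT. The design text of the series treats both groups as knockdown derivatives of BV2, so a control construct in the WT cells is possible, but no source used here says whether there was one. Neither the vector nor the number of clones behind the knockdown is given, no stimulus is labelled, and both groups grew in the same serum-containing medium. SMEK1 is a regulatory subunit of protein phosphatase 4, encoded by Ppp4r3a. The question is how the transcripts of these ligands differ between the groups.

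Microglia are among the sources of peptide growth factors in the brain. Insulin-like growth factor 1 supports neuron survival and myelination, platelet-derived growth factors act on oligodendrocyte precursors and on pericytes, and vascular endothelial growth factors act on vessels. Transforming growth factor beta 1 is secreted in a latent complex and keeps microglia in a resting state, brain-derived neurotrophic factor supports synapses, and heparin-binding EGF-like growth factor is made as a membrane protein and shed by proteases. Most of these proteins are stored, carried or activated outside the cell, so a transcript level is only the first step of their supply.

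Library totals ran from 18036591 to 21131557 counts, so that a single count equalled between 0.0444 and 0.0597 CPM (counts scaled to a common library size). Values in CPM are scaled between libraries by the trimmed mean of M-values (TMM). Ppp4r3a had 48, 122 and 94 counts across knockdown libraries A to C, against 335, 227 and 260 across WT libraries A to C and was thus lower in each knockdown library. Of 14 microglia and macrophage markers 11 were tested, and Trem2, Tyrobp, Cd68 and Csf1r were abundant, whereas P2ry12, Cx3cr1 and Sall1, which mark microglia in the healthy brain, were at or near 0 in both groups. Summed marker levels ran from 3670 to 4024 CPM under knockdown and from 4060 to 4484 CPM in WT. Astrocyte markers summed to at most 0.836 CPM, neuron markers to at most 1.81 CPM and fibroblast markers to at most 5.15 CPM in any library. Oligodendrocyte markers summed to 7.15 to 7.41 CPM under knockdown and 2.53 to 2.81 CPM in WT, nearly all of it Mbp, with Mog, Olig2 and Pdgfra at 0 counts. Endothelial markers had the highest sum of the other cell types, 84.5 to 93.9 CPM under knockdown and 82.4 to 106 CPM in WT. It came from Vwf and Flt1, the 2 of 7 that were tested, while Cdh5 and Cldn5 had 0 counts and Pecam1, Kdr and Tek were near 0. Vwf, von Willebrand factor, fell by 0.77 on the log2 scale (edgeR standard error 0.12, adjusted p = 0.000343), to 41.4 ± 6.18 CPM against 70.3 ± 7.63 CPM for the WT libraries (SD, n = 3), and Flt1, also a receptor of both vascular ligands, rose. The part of these markers in the results below was not tested. How the libraries of a group were grown, together or apart, is not stated, so the tests speak only to the spread between these libraries. In bulk RNA, fewer cells making a transcript and less of it per cell cannot be told apart.

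Igf1, Pdgfb, Vegfa and Pdgfa rose in the knockdown libraries, Vegfb and Hbegf fell, and Tgfb1 was not called. Of the 7 tested ligands 4 were called higher and 2 lower at an adjusted p under 0.05 in edgeR (quasi-likelihood, Benjamini-Hochberg), as are all adjusted p-values that follow. Over all 12269 genes tested 40.1% were called, 20.5% higher and 19.6% lower. The CPM ranges of the groups did not overlap for the same 6 ligands, against 50.9% of all genes tested, 26.7% with the knockdown above and 24.3% with it below. The median log2 fold change of the 7 ligands was 0.45, and that of all genes tested was 0.01. The ligands were chosen with earlier results of these data known. Overlap and call also rest on the same counts, so these values are a description of the list. With library totals in place of TMM the median of all genes moved to 0.17, and higher genes made up 71.3% of the calls in place of 51.1%. Under that scaling 4 ligands were called higher and 1 lower.

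**Figure D1:**
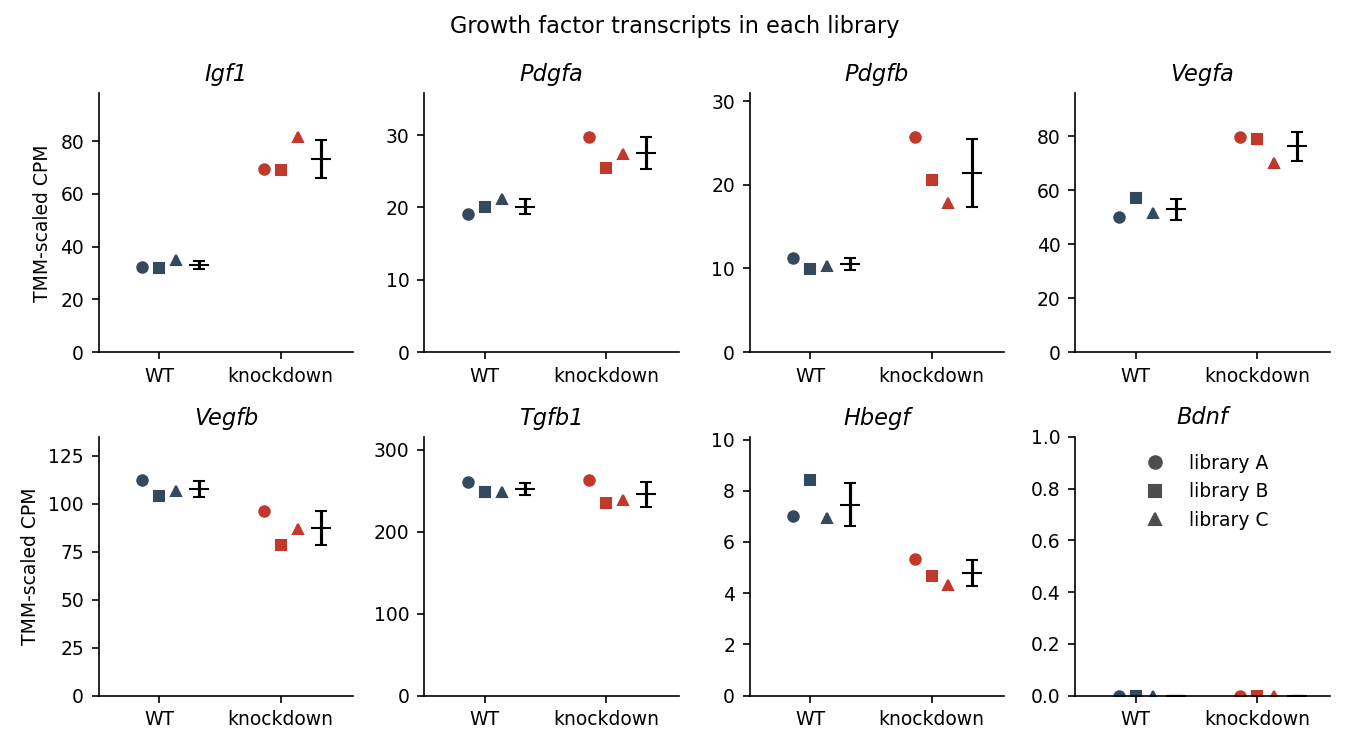
TMM-scaled CPM (y axis, from 0) of the 8 growth factor genes in the 3 WT and 3 knockdown libraries, with marker shapes for libraries A, B and C and bars for the mean ± SD of a group. The groups are apart for Igf1, Pdgfa, Pdgfb, Vegfa, Vegfb and Hbegf, overlap for Tgfb1, and all libraries are at 0 for Bdnf.

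The bases before RefSeq start sites of Vegfa, its relative Vegfb and Pdgfa are given from the GRCm38.p6 promoter table. They run 5′ to 3′ on the strand of the gene. The Pdgfa bases lie inside the gene as counted, chromosome 5, 138976014 to 138997370, so they are not upstream of all its transcripts. The Vegfa and Vegfb bases lie outside the spans of their genes. RefSeq windows of 250 bases before and 50 after a start were found for 6 of the 8 genes, and not for Pdgfb and Hbegf. Only bases outside the exons of the same gene in GENCODE M21 are printed, which leaves 250 for Vegfa and Vegfb and 157 for Pdgfa. Vegfa and Pdgfa each have a second RefSeq start further into the gene. The second Vegfa window begins inside an exon and the second Pdgfa window has 47 bases before one, so neither is printed. Over its whole length the second Vegfa window holds 1 GC box, 1 hypoxia core and 1 TGACG, and the second Pdgfa window 1 GC box. The RefSeq window of Igf1 begins inside an Igf1 exon and is not printed either. Capitals mark 6 motifs searched on both strands: the GC box GGGCGG, the TATA box TATAAA, the E-box CACGTG, the core of the hypoxia response element ACGTG, which the E-box contains and TGACG can overlap, the core of the cAMP response element TGACG and the AP-1 site TGANTCA.
Vegfa, chr17:46032378-46032627, minus strand: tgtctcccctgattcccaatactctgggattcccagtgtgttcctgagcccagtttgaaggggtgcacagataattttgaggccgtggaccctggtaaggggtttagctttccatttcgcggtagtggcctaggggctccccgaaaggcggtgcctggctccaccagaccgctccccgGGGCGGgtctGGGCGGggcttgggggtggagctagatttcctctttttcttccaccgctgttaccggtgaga
Vegfb, chr19:6987652-6987901, minus strand: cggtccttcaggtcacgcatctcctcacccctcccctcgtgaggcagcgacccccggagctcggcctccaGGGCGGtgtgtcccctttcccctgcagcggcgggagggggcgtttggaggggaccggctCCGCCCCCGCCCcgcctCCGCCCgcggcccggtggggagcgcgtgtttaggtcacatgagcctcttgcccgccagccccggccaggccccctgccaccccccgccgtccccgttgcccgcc
Pdgfa, chr5:138995038-138995194, minus strand: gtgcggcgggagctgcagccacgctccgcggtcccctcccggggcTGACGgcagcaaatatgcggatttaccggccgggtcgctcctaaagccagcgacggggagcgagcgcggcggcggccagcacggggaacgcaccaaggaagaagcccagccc
The Vegfa stretch holds 2 GC boxes and the Vegfb stretch 4, of which a pair is adjacent, and neither holds another of the motifs. Of 32851 RefSeq promoter windows 32.7% hold a GC box in the same 250 bases. The Pdgfa stretch holds 1 TGACG and no GC box. The whole 300-base window it comes from holds 2 GC boxes, which lie outside the printed bases. In the same 157 bases of all windows TGACG occurs in 8.84%. These are matches of letters only. The printed stretches of Vegfa and Vegfb share the one motif found in either. The part of any motif in the changes of these transcripts was not tested.

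Igf1, which encodes insulin-like growth factor 1, a ligand of the receptor tyrosine kinase IGF1R, had the highest log2 fold change of the 8, with an interval that overlaps that of Pdgfb. It had 69.3, 69.0 and 81.8 CPM across knockdown libraries A to C, against 32.4, 32.1 and 35.0 CPM across WT libraries A to C. Every knockdown library was far above every WT library. Group means were 73.4 ± 7.29 CPM for the knockdown and 33.2 ± 1.56 CPM for WT (SD, n = 3). This is a log2 fold change of 1.15 (standard error 0.10, adjusted p = 4.01e-06), 2.21-fold, with a 95% interval of 0.94 to 1.35. The gene is ENSMUSG00000020053, at chromosome 10, 87858265 to 87937042 (plus strand, GRCm38, as are all positions). The antisense gene Igf1os shares 5117 bases of that span and had 8 to 15 counts per library against 538 to 1810 for Igf1.

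Pdgfb and Pdgfa encode the B and A chains of platelet-derived growth factor, which pair as homodimers or as the AB heterodimer. Pdgfb had 25.8, 20.6 and 17.8 CPM across knockdown libraries A to C, against 11.3, 9.91 and 10.3 CPM across WT libraries A to C. The knockdown libraries were spread widely but all lay above WT. The log2 fold change of Pdgfb was 1.03 (standard error 0.16, adjusted p = 0.000325), 2.04-fold, with a 95% interval of 0.68 to 1.37. Pdgfa had 29.8, 25.5 and 27.4 CPM across knockdown libraries A to C, against 19.1, 20.1 and 21.2 CPM across WT libraries A to C. Its groups were also apart, with a smaller gap. The log2 fold change of Pdgfa was 0.45 (standard error 0.11, adjusted p = 0.00709), 1.37-fold. Pdgfb, ENSMUSG00000000489, is at chromosome 15, 79995874 to 80014977, and Pdgfa, ENSMUSG00000025856, at chromosome 5, 138976014 to 138997370, both on the minus strand.

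Both platelet-derived growth factor genes overlap an antisense gene at their 5′ end, and no source used here says whether the counting used strand. The antisense gene 6330403L08Rik shares 2315 bases with the span of Pdgfa. It had 218, 229 and 195 counts across knockdown libraries A to C, against 88, 100 and 102 across WT libraries A to C, next to 570, 573 and 606 and 354, 336 and 360 for Pdgfa. It rose by 0.86 on the log2 scale (standard error 0.18, adjusted p = 0.00257), so the rise of Pdgfa and that of its antisense neighbour came together. The printed Pdgfa stretch covers the start of this gene. For Pdgfb the antisense gene is Gm41361, which shares 2647 bases. It had 15, 9 and 17 counts across knockdown libraries A to C, against 0, 3 and 4 across WT libraries A to C, too few to be tested, against 395 to 493 and 166 to 209 for Pdgfb. If the counting did not use strand, reads of sense and antisense genes cannot be told apart where they overlap. Around Pdgfa, the 146 other tested genes starting within 5 Mb had a median log2 fold change of 0.30, against 0.12 for all 814 others on chromosome 5. What part this had in the rise of Pdgfa was not tested.

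Vegfa and Vegfb moved in opposite directions. Vegfa encodes the main endothelial mitogen of the family, a target of hypoxia-inducible factors that binds FLT1 and KDR, and Vegfb encodes a ligand of FLT1 that does not bind KDR. Vegfa had 79.8, 78.9 and 70.0 CPM across knockdown libraries A to C, against 50.0, 57.2 and 51.5 CPM across WT libraries A to C. The groups did not overlap. The log2 fold change of Vegfa was 0.53 (standard error 0.09, adjusted p = 0.000656), 1.44-fold. Vegfb had 96.3, 78.6 and 86.6 CPM across knockdown libraries A to C, against 112, 104 and 107 CPM across WT libraries A to C. Knockdown A came closest to the WT range without reaching it. Vegfb fell by 0.30 on the log2 scale (standard error 0.09, adjusted p = 0.0158), to 81.0% of WT. That call was lost with library totals, where Vegfb had -0.15 (adjusted p = 0.156), and when knockdown B (0.0815), knockdown C (0.0789) or WT C (0.0517) was left out. Vegfa, ENSMUSG00000023951, is at chromosome 17, 46016993 to 46032369, and Vegfb, ENSMUSG00000024962, at chromosome 19, 6982473 to 6987651, both on the minus strand. No other gene of the table overlaps either. The 187 tested genes within 5 Mb of Vegfb had a median of -0.20 on the log2 scale, and the 69 within 5 Mb of Vegfa had -0.21, opposite to Vegfa. Their part in the fall of Vegfb was not tested.

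Tgfb1, transforming growth factor beta 1, had the most counts of the 8 genes and overlapped between the groups. It had 263, 235 and 238 CPM across knockdown libraries A to C, against 261, 248 and 248 CPM across WT libraries A to C. The log2 fold change was -0.04 (standard error 0.08, adjusted p = 0.709), with a 95% interval of -0.21 to 0.13. The sign was positive with library totals (0.12) and without knockdown B (0.013), and in no alternative was the gene called. Tgfb1, ENSMUSG00000002603, is at chromosome 7, 25687002 to 25705077, on the plus strand.

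Hbegf encodes heparin-binding EGF-like growth factor, a ligand of EGFR and ERBB4, and was the lowest of the 7 tested genes by counts. It had 5.33, 4.67 and 4.34 CPM across knockdown libraries A to C, against 7.02, 8.42 and 6.95 CPM across WT libraries A to C. No knockdown library reached the lowest WT library. Hbegf fell by 0.64 on the log2 scale (standard error 0.18, adjusted p = 0.0149), to 64.0% of WT. It rests on 96 to 141 counts per library, and the call was lost without knockdown C (adjusted p = 0.0747) or WT B (0.0586). Hbegf, ENSMUSG00000024486, lies on chromosome 18 from 36504929 to 36515805 on the minus strand. Bdnf, ENSMUSG00000048482, which encodes brain-derived neurotrophic factor and is at chromosome 2, 109674700 to 109727007, on the plus strand, had 0 counts in all 6 libraries. A count of 0 over a group allows up to 3 counts, which equals 0.0470 CPM for the knockdown group and 0.0574 CPM for the WT group, so any transcript was not detectable at this depth. This limit covers counting error only.

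Per length, in the FPKM of the authors, Vegfb and Tgfb1 stood well above the other ligands in both groups. In WT the mean levels were 66.9 ± 2.75 FPKM for Vegfb, 49.9 ± 1.62 for Tgfb1, 12.3 ± 0.873 for Vegfa, 6.43 ± 0.322 for Pdgfa, 3.34 ± 0.154 for Igf1, 3.13 ± 0.345 for Hbegf and 2.51 ± 0.175 for Pdgfb (SD, n = 3). Of these neighbours Igf1 and Hbegf overlapped and the others did not. In the knockdown the order was Vegfb at 53.8 ± 6.30 FPKM, Tgfb1 at 48.2 ± 3.69, Vegfa at 17.6 ± 1.29, Pdgfa at 8.75 ± 0.824, Igf1 at 7.33 ± 0.749, Pdgfb at 5.10 ± 1.01 and Hbegf at 1.99 ± 0.233 (SD, n = 3). There Vegfb overlapped Tgfb1, and Pdgfa overlapped Igf1. Pdgfb and Hbegf exchanged places between the groups.

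**Figure D2:**
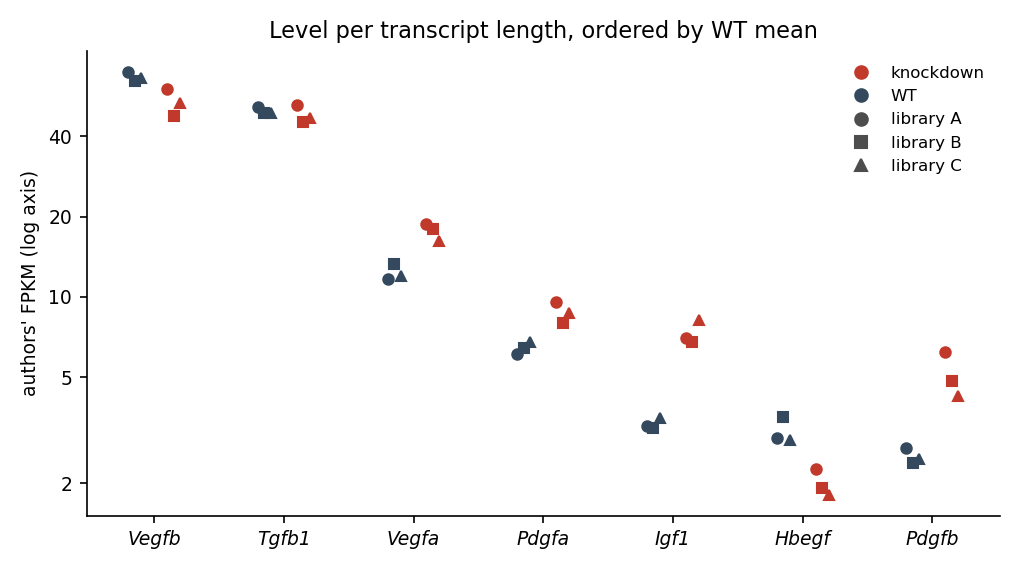
FPKM of the authors (y axis, logarithmic) of the 7 detected growth factor genes in each WT and knockdown library, ordered by the WT mean; Bdnf, at 0, cannot be drawn on this axis. Vegfb and Tgfb1 lie between 45.4 and 69.9 FPKM in every library, and the other 5 genes between 1.81 and 18.7 FPKM.

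Ratios of counts within a library do not depend on how libraries are scaled. The 3 pairs below were chosen with the results known, so they are given as a description without a test. For each Vegfb count there were 0.829, 1.00 and 0.808 Vegfa counts across knockdown libraries A to C, against 0.445, 0.550 and 0.483 across WT libraries A to C. The balance of the vascular ligands thus lay further toward Vegfa in each knockdown library. For each Pdgfa count there were 0.865, 0.810 and 0.652 Pdgfb counts across knockdown libraries A to C, against 0.590, 0.494 and 0.486 across WT libraries A to C. Here knockdown C lay close to WT A. For each Tgfb1 count there were 0.264, 0.293 and 0.343 Igf1 counts across knockdown libraries A to C, against 0.124, 0.130 and 0.141 across WT libraries A to C. Its group means were 0.3001 ± 0.0401 and 0.132 ± 0.00857 (SD, n = 3), the furthest apart of the 3 pairs as a fold.

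**Figure D3:**
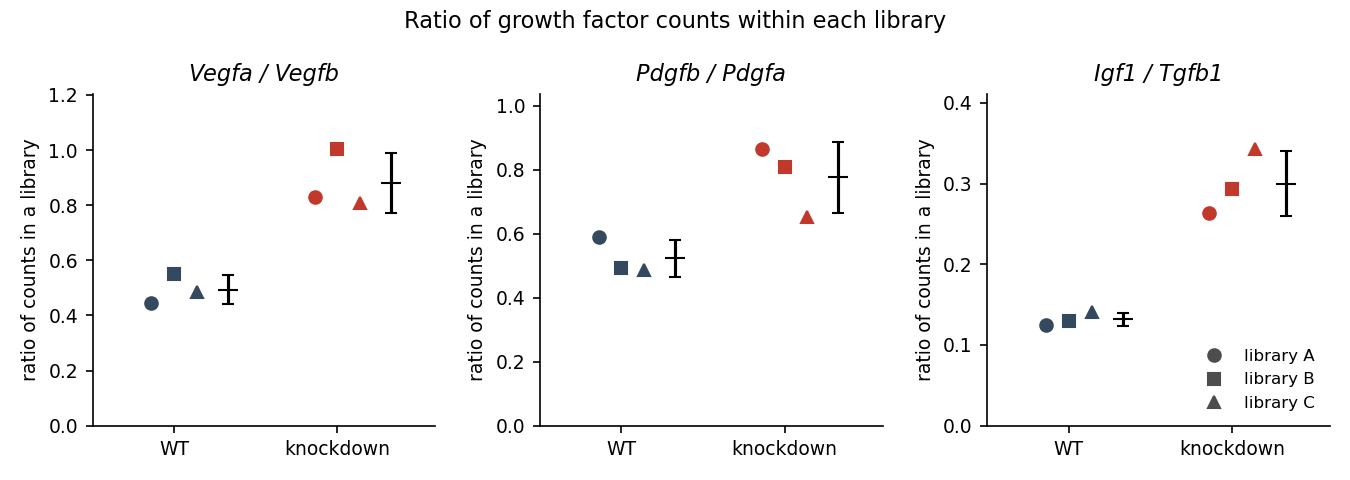
Ratio of the counts of 2 growth factor genes within each library (y axes, from 0), with the mean ± SD of each group as bars. Knockdown libraries lie above WT libraries in each panel, by the smallest margin for Pdgfb over Pdgfa (0.652 against 0.590).

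Other ligands of the same families were nearly silent. Of 16 genes found, 10 had 0 counts in every library, among them Igf2, Vegfc, Tgfb3, Tgfa, Areg and Ereg. Only 3 were tested, of which 1 was called higher and 0 lower, against 40.1% of all genes tested called in either direction. The called gene was Ntf5, neurotrophin 4, which acts through the receptor of brain-derived neurotrophic factor. It had 4.18, 3.82 and 2.17 CPM across knockdown libraries A to C, against 1.35, 2.03 and 1.77 CPM across WT libraries A to C, with a log2 fold change of 0.98 (standard error 0.30, adjusted p = 0.0217). Knockdown C lay just above WT B, and the gene was not called when the fit left out knockdown A (0.0728), WT A (0.0680) or WT C (0.0596).

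Receptors of the 8 ligands were present for only some of them. Of 23 receptors and co-receptors 13 were tested, 5 were called higher and 1 lower, against 40.1% of all genes tested called in either direction, so the share called was near that of all genes. The median log2 fold change was 0.24. Flt1, listed above among the endothelial markers, had 38.2, 54.4 and 47.4 CPM across knockdown libraries A to C, against 27.7, 19.7 and 22.9 CPM across WT libraries A to C. It rose by 0.99 on the log2 scale (standard error 0.15, adjusted p = 0.000312) and did not overlap between the groups. Kdr, the other receptor of Vegfa, had 1 to 8 counts per library and was not tested. Of the neuropilin co-receptors Nrp2 fell by 0.30 (standard error 0.09, adjusted p = 0.0215), and Nrp1 had a log2 fold change of 0.24 (standard error 0.14, adjusted p = 0.209). The Nrp2 call was lost without knockdown A (0.0657), knockdown C (0.0631), WT A (0.0569) or WT C (0.0780), with upper-quartile scaling (0.0502) and with library totals (0.319). The count of lower receptors was then 0 in each of these, while it was 2 without knockdown B and 3 without WT B. Igf1r, the receptor of Igf1, had -0.30 (standard error 0.13, adjusted p = 0.0845), and was called lower without knockdown B (0.0351) or WT B (0.0382). For the platelet-derived factors Pdgfra had 0 counts and Pdgfrb at most 0.0180 CPM on average in a group. For Hbegf both Egfr and Erbb4 had 0 counts, and for Bdnf the receptor gene Ntrk2 had no counts under knockdown and a mean of 0.0589 CPM in WT.

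Cd9, a tetraspanin that binds the membrane form of Hbegf, and Cd44, which can hold it at the cell surface, both rose, while Hbegf fell. Cd9 had 961, 797 and 943 CPM across knockdown libraries A to C, against 451, 555 and 546 CPM across WT libraries A to C, a log2 fold change of 0.80 (standard error 0.11, adjusted p = 0.000118). Cd44 rose by 0.40 (standard error 0.08, adjusted p = 0.00160). Among receptors of the transforming growth factor beta family, Acvrl1, a type I receptor, rose by 0.79 (standard error 0.09, adjusted p = 2.65e-05) and Eng, the co-receptor endoglin, rose by 0.67 (standard error 0.16, adjusted p = 0.00613). Tgfbr1 and Tgfbr2, the receptors of Tgfb1 itself, had log2 fold changes of 0.68 (standard error 0.28, adjusted p = 0.0761) and -0.10 (standard error 0.10, adjusted p = 0.453). Tgfbr1 was called higher without knockdown A (0.0166) or WT A (0.0283), with DESeq2 (0.0465) and with the filter of at least 1 count in any library (0.00315), and Tgfbr2 was positive with library totals (0.056).

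**Figure D4:**
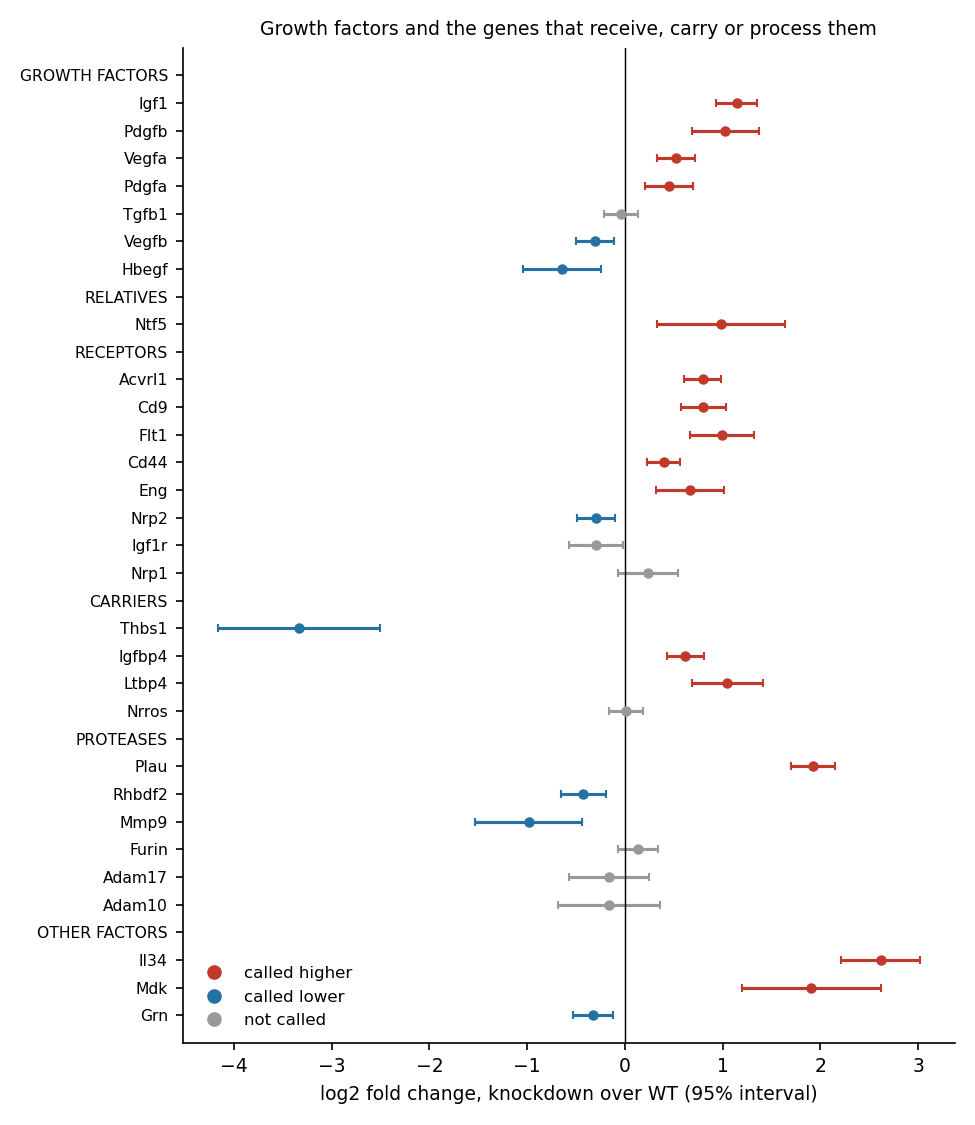
Log2 fold change of knockdown over WT (x axis) with its 95% interval for the 7 tested growth factor genes, and for named relatives, receptors, carriers, proteases and other growth factors; red was called higher, blue called lower and grey not called. Growth factors run from 1.15 for Igf1 to -0.64 for Hbegf, while Il34 at 2.62 and Thbs1 at -3.33 lie farthest out.

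Among carriers and latency proteins 6 of 18 genes were tested, of which 2 were called higher, 1 lower and 3 not at all, against 40.1% of all genes tested called in either direction. With so few tested the count says little of the list, and the genes are described singly. The median log2 fold change was 0.22. The count of lower members was 2 with the filter of at least 1 count in any library and 0 with either FPKM scale, where Thbs1 was not tested. Igfbp4, a secreted binding protein that holds insulin-like growth factors away from their receptor, rose by 0.62 (standard error 0.09, adjusted p = 0.000194), with 205 ± 7.59 CPM in WT and 315 ± 31.1 CPM in the knockdown (SD, n = 3). Igf1 and this inhibitor of its protein thus both rose. Ltbp4, a latent TGF-beta binding protein, had 13.3, 13.2 and 12.3 CPM across knockdown libraries A to C, against 6.58, 5.13 and 7.004 CPM across WT libraries A to C. It rose by 1.05 (standard error 0.17, adjusted p = 0.000428). Thbs1, thrombospondin 1, which can activate latent Tgfb1, had 4, 11 and 8 counts across knockdown libraries A to C, against 95, 50 and 49 across WT libraries A to C. It fell by 3.33 on the log2 scale (standard error 0.38, adjusted p = 4.27e-05), to 9.91% of WT. Nrros, which tethers latent Tgfb1 to microglia and other myeloid cells, had a log2 fold change of 0.01 (standard error 0.08, adjusted p = 0.917), at 294 ± 23.1 CPM under knockdown and 291 ± 5.90 CPM in WT (SD, n = 3), and was called higher with library totals (0.0422).

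Among the proteases and activators 11 of 25 were tested, 1 was called higher and 3 lower, a share near the 40.1% called over all genes tested, with a median log2 fold change of -0.16. Plau, urokinase, which generates plasmin and so frees matrix-bound and latent factors, had 707, 627 and 609 CPM across knockdown libraries A to C, against 152, 193 and 167 CPM across WT libraries A to C. It rose by 1.92 (standard error 0.10, adjusted p = 1.42e-07), 3.79-fold. Its substrate gene Plg had 0 counts, and the tissue activator gene Plat was at most 0.0774 CPM on average in a group. Mmp9 and Mmp2, gelatinases, were low and fell by 0.99 (standard error 0.25, adjusted p = 0.00819) and fell by 1.90 (standard error 0.36, adjusted p = 0.00155), the latter from a mean of 1.36 CPM; Mmp2 lies below the level set for naming genes and was added to complete the 3 lower members. Rhbdf2, which guides the sheddase ADAM17 to the cell surface, fell by 0.43 (standard error 0.11, adjusted p = 0.00695), which was not called when knockdown C was left out (0.0504) or with library totals (0.0852). Adam17 itself had a log2 fold change of -0.16 (standard error 0.19, adjusted p = 0.516), and Adam10, another sheddase of Hbegf, had -0.16 (standard error 0.24, adjusted p = 0.621). Furin, a convertase that matures several of these precursors, had 0.13 (standard error 0.10, adjusted p = 0.292) and was called higher with library totals (0.0249). The count of higher members was 2 with library totals, with the filter of at least 1 count in any library and without WT A.

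Growth factors of other families were mostly below the filter or not called. Of 23 genes 12 were tested, 3 were called higher and 2 lower, a share near the 40.1% called over all genes tested, with a median log2 fold change of -0.12. Il34, a ligand of the CSF1 receptor, had 14.5, 12.7 and 13.6 CPM across knockdown libraries A to C, against 2.48, 2.27 and 1.88 CPM across WT libraries A to C, and rose by 2.62 (standard error 0.18, adjusted p = 9.86e-07). Csf1, the other ligand of that receptor, had -0.09 (standard error 0.07, adjusted p = 0.338), and was positive with library totals (0.066). Cdnf, a neurotrophic factor of dopamine neurons that lies below the level set for naming genes, rose by 2.54 (standard error 0.48, adjusted p = 0.00142) to a mean of 1.36 CPM. Mdk, midkine, a heparin-binding factor, rose by 1.91 (standard error 0.32, adjusted p = 0.000685) from a mean of 0.923 CPM in WT. Grn, which encodes progranulin, fell by 0.33 (standard error 0.09, adjusted p = 0.0163), to 1533 ± 165 CPM under knockdown against 1925 ± 67.0 CPM in WT (SD, n = 3). The Grn call was lost without knockdown C (0.114) or WT C (0.0541) and with library totals (0.112). Manf, a stress-induced neurotrophic factor whose groups overlapped, fell by 0.46 (standard error 0.14, adjusted p = 0.0189). The Manf call was lost without knockdown B (0.0506), knockdown C (0.0764), WT B (0.0638) or WT C (0.0579) and with library totals (0.0617). The block by library letter ended both calls, with 0.0657 for Grn and 0.0706 for Manf.

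The genes whose pattern over the 6 libraries was most like that of each ligand were found by Pearson correlation of log2 CPM among 8716 protein-coding genes averaging 5 CPM or more. For Igf1 these were Fbxo18 (r = 0.998) and Hspa14 (r = 0.997). For Pdgfa they were Smarcd1 and Limd2, both at r = 0.998, and for Pdgfb Nckipsd (r = 0.999) and Gpt (r = 0.997). Vegfa was most like Bcl2a1b (r = 0.996) and Rabep2 (r = 0.996), and Vegfb most like Ccdc120 (r = 0.997) and Klhl21 (r = 0.994). Hbegf was closest to Tram1 (r = 0.996) and Dbnl (r = 0.995). Tgfb1, which did not separate the groups, was closest to Plxnd1 (r = 0.991) and Gga1 (r = 0.983). No gene appears for more than 1 ligand. The 6 points share their libraries and scaling. For the ligands whose 2 groups are apart most of each r is the group difference, which does not hold for Tgfb1. Each r is also among the highest of 8716 candidates over only 6 points, so the values are a description.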

How the data were processed

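RNA-seq of 6 BV2 libraries, 3 labelled SMEK1 knockdown and 3 labelled WT, was used. The authors deposited whole-number counts per gene and FPKM values for 54532 Ensembl genes. Per the submitters' processing notes the build was GRCm38 (mm10). Which aligner, counter, strand setting and annotation release were used is not stated in any label or header. Each deposited FPKM value was the count over gene length and over 1 constant per library, 0.911 to 1.12 times the library total. The members and lists were chosen with earlier results of these data known, and the list of related ligands is not complete: a result was left out and is not reported here.

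Counts were tested in R 4.3.3 with edgeR 4.0.16: filterByExpr (12269 genes), TMM, glmQLFit and glmQLFTest, with p-values adjusted by Benjamini-Hochberg across those genes. Each standard error is the absolute log2 fold change over the root of the F statistic, and 95% intervals use it. These errors are approximate. Alternatives used other scalings and filters, DESeq2 1.42.0, limma 3.58.1 (voom, and log2 FPKM with pseudocounts of 1 and 0.1 and a mean FPKM of at least 0.5), a replicate block and each library left out in turn. Named list genes are called, have a mean of at least 1 CPM and groups that do not overlap, at most 6 per list by adjusted p, plus receptors and processing enzymes of called ligands. Cdnf, Mmp2, Manf, Vwf, Csf1, Tgfbr1, Tgfbr2 and Nrros lie outside that rule and were chosen after their values were seen. The test was run on simulated data before use, with 67, 67 and 66 of 12119 genes changed 1.5-, 2- and 4-fold. It recovered 52.2%, 77.6% and 97% of them. In the real data 4918 of 12269 genes were called, so the simulation had far fewer changed genes and its shares may not carry over.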

Additional observations from a re-analysis of the deposited data

How the results depend on the processing

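The rises of Igf1, Pdgfa, Pdgfb and Vegfa kept their direction and call in all 16 alternatives. Their log2 fold changes ranged from 0.94 to 1.30 for Igf1, 0.39 to 0.61 for Pdgfa, 0.78 to 1.18 for Pdgfb and 0.48 to 0.69 for Vegfa. Vegfb kept its direction in all 16 (-0.37 to -0.15) and lost its call in 4, and Hbegf kept its direction (-0.72 to -0.46) and lost its call in 3. Tgfb1 changed sign in 2, with 0.12 for library totals and, over the fits that leave out a library, a range of -0.086 to 0.013, positive when knockdown B was left out. The number of ligands called was 4 to 6 with each library left out, and 3703 to 4870 genes were called in all, against 6 and 4918. Among 31 other named genes Adam10 (-0.43 to 0.10 over the same fits) turned positive when knockdown A or WT A was left out, and Adam17 (-0.36 to 0.024) when knockdown A was. Nrros (-0.046 to 0.076) turned negative without knockdown A or WT A and on the FPKM scales (-0.00016 and -0.00021). Csf1 (0.066) and Tgfbr2 (0.056) turned positive with library totals. The cause was not tested. On the log2(FPKM + 1) scale low genes have smaller fold changes by construction.

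Deviations from the group means correlated at -0.361, -0.326 and 0.00247 for same-letter libraries, and from -0.129 to 0.412 for libraries of different letters. With 3 libraries in a group, whose deviations sum to 0, these values cannot show whether the letters A, B and C mark libraries grown together. With a replicate block 5 ligands and 3326 genes were called, and Hbegf (adjusted p = 0.0609), Ntf5 (0.0635), Nrp2 (0.0872), Grn (0.0657) and Manf (0.0706) were not. Depth limits Bdnf, with 0 counts, and Hbegf, whose fall rests on 96 to 141 counts per library.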
